A study of Mus musculus with 2 samples.

Results

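Basophils and mast cells were examined among the leukocytes of MC38 tumors, a mouse colon adenocarcinoma line grown under the skin. A barcode was taken as a cell of this kind when it had at least 500 unique molecular identifiers (UMIs), at least 300 genes and at most 10% mitochondrial UMIs. It also had to have at least 3 UMIs, from at least 2 genes, of Mcpt8, Cpa3, Ms4a2, Fcer1a, Cd200r3 and Gata2. At most 1 UMI was allowed in sum for C1qa, C1qb and C1qc, and at most 1 for Cd3d, Cd3e, Cd3g, Ncr1, Klrb1c and Klre1. The rule found 63 cells among 11481 barcodes that passed the depth and mitochondrial limits, 41 of 5873 in the ketogenic library and 22 of 5608 in the normal library.

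The ketogenic group was C57BL/6J female mice that ate a ketogenic diet from day 4 after implantation, and the normal group was mice of the same strain and sex on a normal diet. Mice of both groups were 6 to 8 weeks old, received MC38 cells in 50% matrigel in the flank and were sampled on day 14. Dead cells were depleted and CD45+ cells were enriched with magnetic beads, the cells of 5 mice were combined into 1 library per diet, and 3′ ends were counted with the Chromium kit version 3.1. With 1 library per diet, no difference between the diets could be tested. The intervals given with ratios and shares are exact 95% intervals that cover counting error only, not the spread between mice or between cells.

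Basophils circulate and enter inflamed tissue, whereas mast cells mature and live in the tissue itself. Both carry the high-affinity receptor for IgE, whose alpha chain is encoded by Fcer1a, whose beta chain by Ms4a2 and whose gamma chain by Fcer1g. Both depend on the transcription factor GATA2, make histamine through Hdc and can release interleukin 4, interleukin 13 and chemokines. They differ in granule proteases: Mcpt8 marks mouse basophils, while the chymases Cma1 and Mcpt4 and the tryptases Tpsb2 and Tpsab1 mark mast cells of connective tissue, and Mcpt1 and Mcpt2 mark mast cells of mucosa.

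The promoters of 4 of these genes are shown because the cells were chosen partly by Gata2, whose product binds GATA sites, and because Mcpt8 and Cma1 turned out to separate the cells. Sequences are from RefSeq (GRCm38.p6), run 5′ to 3′ on the gene's strand from 250 bases before to 50 bases after its start, and have in capitals every GATA that follows an A or T and precedes an A or G, read on either strand with those flanking bases. Ms4a2 is at chr19:11623670-11623969 and Cd200r3, an activating receptor of basophils and mast cells, at chr16:44943428-44943727. Mcpt8 is at chr14:56085148-56085447 and Cma1 at chr14:55944626-55944925.
Ms4a2: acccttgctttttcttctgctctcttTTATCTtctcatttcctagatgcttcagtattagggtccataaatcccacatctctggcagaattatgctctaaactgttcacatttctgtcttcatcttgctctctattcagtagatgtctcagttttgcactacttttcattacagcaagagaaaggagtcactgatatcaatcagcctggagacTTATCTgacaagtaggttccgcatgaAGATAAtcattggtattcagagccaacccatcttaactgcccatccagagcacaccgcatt
Cd200r3: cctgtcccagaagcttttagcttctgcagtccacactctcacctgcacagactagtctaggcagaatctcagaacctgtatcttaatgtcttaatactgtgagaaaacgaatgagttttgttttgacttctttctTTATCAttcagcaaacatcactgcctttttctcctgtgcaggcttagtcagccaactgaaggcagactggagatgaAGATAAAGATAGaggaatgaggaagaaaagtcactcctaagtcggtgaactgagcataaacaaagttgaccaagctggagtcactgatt
Mcpt8: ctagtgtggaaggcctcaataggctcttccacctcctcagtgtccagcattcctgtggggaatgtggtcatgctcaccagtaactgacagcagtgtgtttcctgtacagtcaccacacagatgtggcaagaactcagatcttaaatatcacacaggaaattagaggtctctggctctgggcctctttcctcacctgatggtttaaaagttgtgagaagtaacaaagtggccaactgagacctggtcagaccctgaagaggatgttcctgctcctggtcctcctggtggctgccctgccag
Cma1: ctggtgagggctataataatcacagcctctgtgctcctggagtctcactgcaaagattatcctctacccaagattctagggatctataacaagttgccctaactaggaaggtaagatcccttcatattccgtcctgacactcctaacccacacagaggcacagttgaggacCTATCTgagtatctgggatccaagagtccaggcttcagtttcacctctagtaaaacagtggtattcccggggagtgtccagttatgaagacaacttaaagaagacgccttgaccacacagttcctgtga
Ms4a2 and Cd200r3 held 3 matches each, Cma1 held 1 and Mcpt8 held none in this window. Of the 6 genes of the rule, 4 held at least 1 match (Ms4a2, Cd200r3, Cpa3 and Fcer1a), against 29.8% of 32851 promoters of the same length in the table. A match is a description of the letters only. The genes of Mcpt8, Cma1, Mcpt4, Mcpt1, Mcpt2, Gzmb and Gzmc are neighbours on chromosome 14, from 55941451 to 56262260 in the GENCODE annotation of GRCm38. Tpsb2 and Tpsab1 lie elsewhere, on chromosome 17, and Cpa3 lies on chromosome 3.

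Checked against markers, the cells were of both kinds. The rule used none of Cma1, Mcpt4, Tpsb2, Tpsab1 and Kit, and every cell held either 0 or at least 25 UMIs of these 5 genes in sum. The mast cell-like cells had 368, 355, 77 and 25 such UMIs in the ketogenic library, and 362, 361, 240, 62 and 35 in the normal library. The other 54 cells, 37 ketogenic and 17 normal, had none and are called basophil-like here. The plot of these UMIs against Mcpt8 shows no cell in between.

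**Figure D1:**
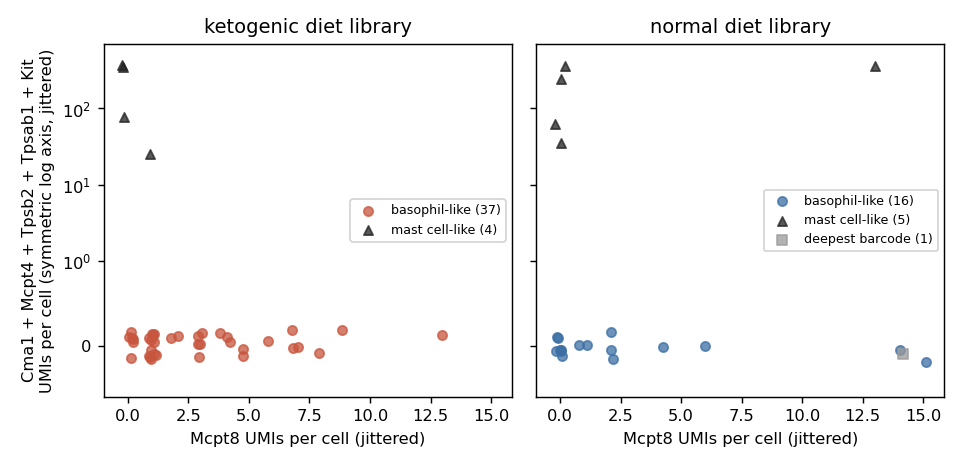
UMIs of the 5 mast cell genes in sum (vertical, symmetric log axis) against Mcpt8 UMIs (horizontal) in each cell, with the ketogenic library on the left and the normal library on the right. The 4 ketogenic and 5 normal mast cell-like cells sit at 25 or more, all others at 0, and the points are jittered.

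The mast cell-like cells were rich in connective-tissue proteases. Cma1, mast cell chymase, had 224, 199, 37 and 22 UMIs in the 4 ketogenic cells, and 248, 178, 95, 25 and 8 in the 5 normal cells. Mcpt4, a second chymase, had 110, 73, 34 and 0 UMIs in the ketogenic cells, and 97, 96, 81, 24 and 14 in the normal cells. Ranges of both genes overlapped between the diets. The ketogenic cell without Mcpt4 was different in its proteases: it had 218 UMIs of Mcpt1 and 138 of Mcpt2, the mucosal proteases, no Tpsb2 and 13 UMIs of Gzmb. Mcpt1 was at 0 in the other 3 ketogenic cells and at most 1 UMI in the normal cells. Mcpt2 was also found beside Mcpt4, with 33 UMIs in another ketogenic cell and with 26 and 15 in a pair of normal cells. Mcpt8 was at 0 in 3 of 4 ketogenic and in 4 of 5 normal mast cell-like cells, and the exception in the normal library held 13 Mcpt8 UMIs beside 248 of Cma1.

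A single barcode of the normal library stood apart from all others in depth. It had 15210 UMIs and 3788 genes, which is 28.7% of all UMIs of the normal cells, against medians of 1765 UMIs over the 41 ketogenic cells and 1610.5 over the 22 normal cells. It carried 14 Mcpt8 UMIs together with 155 of Lyz2, a myeloid lysozyme, 61 of S100a8, a neutrophil and monocyte gene, 70 of Cd74, the invariant chain of MHC class II, and 27 of Il1b. Genes of other lineages were not confined to this barcode. With cells carrying genes of a further lineage removed, 40 of 41 ketogenic and 18 of 22 normal cells remained. A normal mast cell-like cell held 20 Lyz2 UMIs and 32 UMIs of the listed monocyte genes in sum. Another held 10 UMIs of the listed neutrophil genes. Results between the diets are given with and without the deepest barcode. The account of basophil-like cells uses the 37 ketogenic and 16 normal cells that remain without it.

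Without the deepest normal barcode, basophil-like cells had 577 to 2908 UMIs, median 1765, in the ketogenic library and 1019 to 2444, median 1416.5, in the normal library. Their median mitochondrial share was 0.825% in the ketogenic and 1.27% in the normal library. Markers of most other leukocytes were at or near 0 in both sets, though the rule itself partly set some of these sums. It capped Cd3d, Cd3e and Cd3g of the T cell list and Ncr1, Klrb1c and Klre1 of the NK cell list. C1qa, C1qb and C1qc of the macrophage list were capped as well. The 10 T cell genes gave 3 UMIs in the ketogenic and 0 in the normal set, the 10 NK cell genes 15 and 8, and the 12 dendritic cell genes 6 and 3, and all 7 hemoglobin and other erythroid genes were at 0. The neutrophil list gave 108 UMIs in the ketogenic and 34 in the normal set. Acod1 made up 92 of the ketogenic and 16 of the normal UMIs, and Cxcr2 13 and 17. S100a9, another gene of this list, was at 0 in both. The monocyte list gave 114 UMIs in the ketogenic and 71 in the normal set, the macrophage list 11 and 15, the eosinophil list 7 and 2, the B and plasma cell list 2 and 3, and the list of tumor and stroma genes 4 and 2. The list of type 2 innate lymphoid cells, which shares Areg and Il13 with basophils, gave 56 and 10, and the platelet list 22 and 3. The part of these cells in the differences between the diets was not tested. No barcode of these cells occurred in both libraries, although 7 barcodes did among the kept barcodes.

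Basophils and mast cells made up 0.698% (0.501 to 0.946%) of kept barcodes in the ketogenic library and 0.392% (0.246 to 0.593%) in the normal library. The ratio of the shares was 1.78 (1.04 to 3.14). The difference in number lay among the basophil-like cells, with 37 cells or 0.630% in the ketogenic library and 17 cells or 0.303% in the normal library, a ratio of 2.08 (1.14 to 3.94). Without the deepest normal barcode there were 16 in the normal library, or 0.285%, and the ratio was 2.21 (1.20 to 4.25). Mast cell-like cells were 4, or 0.0681%, in the ketogenic library and 5, or 0.0892%, in the normal library, and their ratio of 0.764 had an interval from 0.152 to 3.55. The share depends on what else was captured: with C1q-positive macrophages left out of the total, it was 0.804% in the ketogenic and 0.552% in the normal library, and the interval of the log2 ratio of 0.54 ran from -0.24 to 1.36. Of marker-positive barcodes, 6 of 47 in the ketogenic and 3 of 25 in the normal library had been set aside for T cell, NK cell or C1q UMIs. Just inside the rule, at 3 marker UMIs, were 4 ketogenic and 3 normal cells, and just outside it, at 2 UMIs from 2 genes, 2 ketogenic barcodes and 1 normal barcode.

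**Figure D2:**
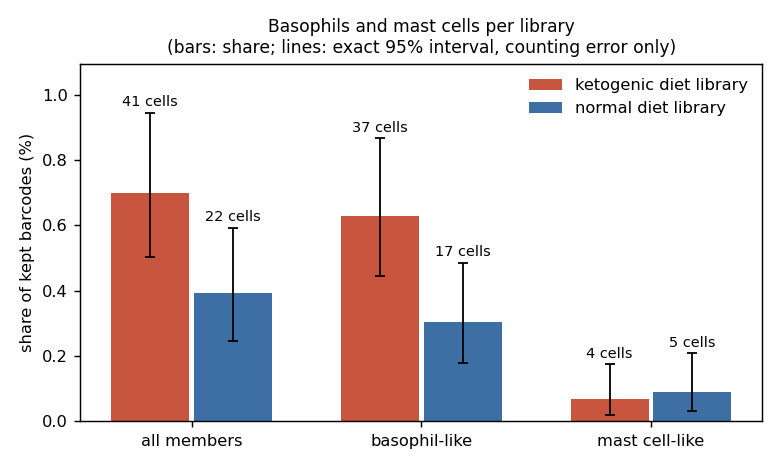
Share of kept barcodes (vertical, percent) for all cells of the rule, basophil-like and mast cell-like cells in the ketogenic (left bar) and normal (right bar) library. Lines are exact 95% intervals from counting error, and the numbers above are cells. Basophil-like cells are 37 against 17 and mast cell-like cells 4 against 5, and the intervals of the libraries overlap in every group shown.

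The genes that led over all other barcodes were used to describe the cells, since the rule picked them. Beside the genes of the rule, the leading 25 genes included the chemokines Ccl3 and Ccl4, Hdc, histidine decarboxylase, and Cyp11a1, the enzyme that starts steroid synthesis. Ccl3 stood at 18662 CPM (the gene's UMIs scaled to an equal total in every set of cells) in the ketogenic cells, against 203 CPM in the other ketogenic barcodes. In the normal library it stood at 10544 CPM in the cells and at 274 CPM in the other barcodes. Cyp11a1 stood at 1342 CPM against 1.16 CPM in the ketogenic library, and at 868 CPM against 0.734 CPM in the normal library. Others of the 25 were immediate early genes (Egr1, Ier2, Ier3, Jun), cytokines (Osm, Csf1 and Il6), Ifitm1, an interferon-induced membrane protein abundant in basophils, and Cd69, an activation marker. Il6, an inflammatory cytokine, was at 990 CPM in the ketogenic cells and 4.17 CPM in the other ketogenic barcodes, against 415 CPM in the normal cells and 4.49 CPM in the other normal barcodes.

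Basophil-like and mast cell-like cells differed in much more than proteases. Of 744 genes with at least 20 UMIs over both kinds, 151 were at least 2-fold higher in basophil-like cells in both libraries and 66 were at least 2-fold lower. The chemokines were split between them. Ccl3 stood at 22218 CPM in basophil-like and at 0 in mast cell-like cells of the ketogenic library, and at 20592 CPM and 831 CPM in the normal library. Ccl6 and Ccl9, macrophage-attracting chemokines, were likewise on the basophil-like side, with Ccl9 at 2110 CPM in ketogenic and 3174 CPM in normal basophil-like cells and at 0 in both mast cell-like sets. Ccl2 and Ccl7, which attract monocytes through CCR2, were on the mast cell-like side. Ccl2 stood at 15.5 CPM in basophil-like and 5862 CPM in mast cell-like cells of the ketogenic library, and at 81.4 CPM and 5969 CPM in the normal library. It was found in 2 of 4 ketogenic and 5 of 5 normal mast cell-like cells. Of the 97 Ccl7 UMIs in ketogenic mast cell-like cells, 94 were in a single cell. Cpa3, a carboxypeptidase that the rule counts for both kinds, stood at 326 CPM in basophil-like and 7164 CPM in mast cell-like cells of the ketogenic library, and at 733 CPM and 7405 CPM in the normal library. Further genes on the basophil-like side were Dusp5, Cd9, Csf1, Ptgs2 and Nlrp3, and Ctla2a and Ly6a were on the mast cell-like side.

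**Figure D3:**
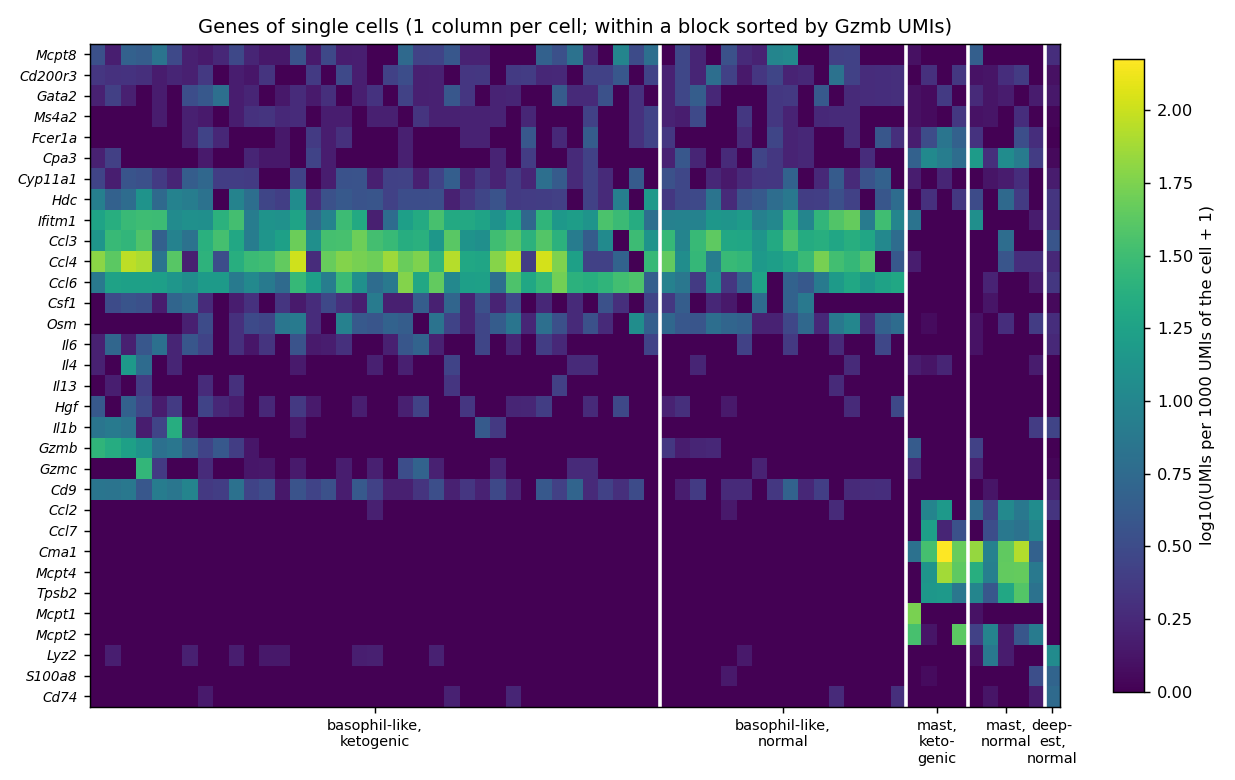
Each column is 1 cell and each row 1 gene, with color giving log10 of (UMIs per 1000 UMIs of the cell + 1). Blocks run from basophil-like ketogenic and normal cells to mast cell-like ketogenic and normal cells and the deepest normal barcode. Ccl3, Ccl4 and Ccl6 fill the basophil-like blocks, and Gzmb the left edge of the ketogenic basophil-like block. Cma1 fills the mast cell-like blocks, where Mcpt4, Ccl2 and Ccl7 are each missing from some cells.

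Basophil-like cells share granulocyte genes with neutrophils, which were gated separately (155 ketogenic and 203 normal cells). The neutrophil gate used a gene list that holds S100a9, and Mcpt8 is a gene of the rule. The contrasts of S100a9 and Mcpt8 are thus partly set by the gates and describe them. Hdc stood at 3755 CPM in basophil-like cells and 945 CPM in neutrophils of the ketogenic library, and at 2645 CPM and 1403 CPM in the normal library. Mcpt8 stood at 1707 CPM against 2.20 CPM in the ketogenic library, and at 1913 CPM against 0 in the normal library. S100a9 went the other way, at 0 in both basophil-like sets, against 19479 CPM in ketogenic and 18374 CPM in normal neutrophils. The interferon gene Ifit3 was also at 0 in both basophil-like sets, against 1580 CPM in ketogenic and 1566 CPM in normal neutrophils.

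Between the diets, 863 genes had at least 20 UMIs over all 63 cells. Of these, 56 (6.49%) were at least 2-fold higher in the ketogenic cells and 71 (8.23%) at least 2-fold lower, on a scale of log2 (CPM + 50). The lower genes rested largely on the deepest normal barcode: Lyz2 had 8 UMIs in the ketogenic cells and 178 in the normal cells, 155 of them in that barcode, and Cd74 had 3 UMIs in the ketogenic cells and 74 in the normal cells, 70 of them there. Without it, 744 genes were measured, and 60 (8.06%) were at least 2-fold higher and 41 (5.51%) at least 2-fold lower. Among the 53 basophil-like cells without it, 572 genes were measured, and 53 (9.27%) were at least 2-fold higher and 29 (5.07%) at least 2-fold lower in the ketogenic cells. Of the 71 genes that were lower over all cells, 7 were also lower in this set. Over the 572 genes, the median log2 ratio was -0.02. These basophil-like cells held 64451 UMIs in the ketogenic and 24573 in the normal library. A gene high in the ketogenic cells thus reached 20 UMIs at a lower CPM than a gene high in the normal cells. This limit favors higher genes, also among the measured genes of lists, and its part in these counts was not tested.

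The genes of the rule had to be present in the cells, so their levels are given as a description, and they did not all go the same way. Mcpt8 stood at 1707 CPM in the ketogenic and 1913 CPM in the normal basophil-like cells, a ratio of 0.892 (0.629 to 1.28), and Gata2 at 931 CPM and 936 CPM, a ratio of 0.995 (0.606 to 1.69). For the IgE receptor, Fcer1a stood at 419 CPM in the ketogenic and 570 CPM in the normal cells, Ms4a2 at 465 CPM and 570 CPM, and Fcer1g at 3274 CPM and 2889 CPM, all with intervals that hold 1. Cd200r3 stood at 838 CPM in the ketogenic and 1506 CPM in the normal cells, a ratio of 0.556 (0.360 to 0.870). Cpa3 stood at 326 CPM in the ketogenic and 733 CPM in the normal cells, a ratio of 0.445 (0.226 to 0.886), and at 0.611 without the normal cell with most Cpa3. Prss34, a basophil protease, had 10 UMIs in 5 ketogenic cells and 34 UMIs in 2 normal cells, but 33 of those 34 were in a single cell, and without that cell its ratio was 3.56. Ifitm1, Cyp11a1 and Cd69 were within 1.2-fold of each other between the diets, and Hdc stood at 3755 CPM in the ketogenic and 2645 CPM in the normal cells, a ratio of 1.42 (1.08 to 1.90).

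Among lists with at least 3 measured genes, the cytokines had the highest median ratio in the basophil-like cells. Of the 20 cytokine genes listed, 5 were measured; 3 of these (Il4, Il6 and Il1b) were at least 1.5-fold higher on the log2 (CPM + 50) scale used for all lists, none was at least 1.5-fold lower, and the median log2 ratio was 1.56, that of Il6. Over all 572 genes, 17.1% were at least 1.5-fold higher and 15.4% at least 1.5-fold lower. These shares are the background for every list count in basophil-like cells below. Il6 had UMIs in 24 of 37 ketogenic cells, with at most 12 in a cell, and in 4 of 16 normal cells, with at most 4. Its level was 1179 CPM in the ketogenic and 366 CPM in the normal cells, a ratio of 3.22 (1.61 to 7.31), or 2.81 without the richest cell. Il6 UMIs were found in 1.29% of ketogenic and 0.985% of normal neutrophils, whose median depth was 1426 UMIs in the ketogenic and 1105 in the normal library.

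Il4, the type 2 cytokine basophils are best known for, was found in 10 of 37 ketogenic cells, with 26, 10 and 3 UMIs in the highest 3 cells and 1 in each of the other 7, and in 2 of 16 normal cells, with 1 UMI each. Its ratio was 8.77 (2.29 to 74.6), and 3.93 without the richest ketogenic cell, so a single cell set much of its size. Il4 was at 0 in the ambient RNA of both libraries, taken from barcodes with at most 100 UMIs. Il13, a second type 2 cytokine, had UMIs in 6 of 37 ketogenic cells and 1 of 16 normal cells, and Il4 or Il13 was found in 14 ketogenic cells and 3 normal cells. At an equal depth of 1000 UMIs, the expected share of cells with Il4 was 21.1% in the ketogenic and 9.39% in the normal library, and with Il6 50.4% and 22.2%.

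Other secreted factors differed in direction. Hgf, hepatocyte growth factor, had UMIs in 20 of 37 ketogenic and 5 of 16 normal cells, and its ratio was 2.45 (1.10 to 6.44), or 2.13 without the richest cell. Osm, oncostatin M, had UMIs in 27 of 37 ketogenic cells and in all 16 normal cells, at 2358 CPM in the ketogenic and 3418 CPM in the normal set, a ratio of 0.690 (0.525 to 0.912). Csf1, macrophage colony-stimulating factor, stood at 1458 CPM in the ketogenic and 1384 CPM in the normal cells, though its UMIs were spread over 30 of 37 ketogenic cells and 7 of 16 normal cells. Areg, an EGF-receptor ligand, had 14 and 13 UMIs in 2 ketogenic cells and none in the normal cells. At least 4 of Il4, Il13, Il6, Hgf, Osm and Csf1 were found together in 11 of 37 ketogenic cells and in 0 of 16 normal cells. With a floor of 3 counts, 0 of 16 allows up to 18.8%. No equal-depth value was taken for this count, and the ketogenic cells were deeper (median 1765 UMIs against 1416.5 in the normal cells). The median number of these 6 genes per cell was 3 in the ketogenic and 2 in the normal set. The count repeats the detections of the single genes given above and is no separate support for them.

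Chemokines took a large share of all UMIs under both diets and were not shifted as a block. Of 17 genes listed, 5 were measured, 3 were at least 1.5-fold higher in the ketogenic cells and the median log2 ratio was 0.79. Ccl6 had 2 to 102 UMIs per ketogenic cell, median 28, and 0 to 28 per normal cell, median 13, at 17765 CPM and 7854 CPM, a ratio of 2.26 (1.94 to 2.65). Ccl4 stood at 41442 CPM in the ketogenic and 23684 CPM in the normal cells, a ratio of 1.75 (1.60 to 1.92). Ccl3 stood at 22218 CPM and 20592 CPM, a ratio of 1.08 (0.974 to 1.20), and Ccl9 at 2110 CPM and 3174 CPM, a ratio of 0.665 (0.500 to 0.890). Cxcl2, a neutrophil attractant, had a ratio of 1.75, which was 1.27 without the ketogenic cell that held 46 of its 156 UMIs.

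Granzyme B separated a minority of the ketogenic basophil-like cells. Gzmb, a cytotoxic protease that mouse mast cells can also make, had 43, 40, 30, 25, 12, 9, 6, 4, 4 and 3 UMIs in 10 of 37 ketogenic cells and at most 1 in the other 27, and at most 2 UMIs in any of the 16 normal cells. Any Gzmb UMI was found in 11 of 37 (29.7%) ketogenic and 4 of 16 (25%) normal cells, so the sets differed mainly in amount per cell. Its level was 2746 CPM in the ketogenic and 203 CPM in the normal cells, a ratio of 13.5 (5.68 to 42.1), or 10.5 without the richest cell. Gzmb made up 1640 CPM of the ambient RNA in the ketogenic and 1428 CPM in the normal library, and it was seen in 14.2% of ketogenic and 13.8% of normal neutrophils. In the 10 cells with at least 3 Gzmb UMIs, the NK cell genes Prf1 and Ccl5 were at 0, Gzma had 1 UMI and Nkg7 had 5, while Mcpt8 was found in all 10, with 42 UMIs. The same 10 cells held 38 of the 46 Il4 UMIs, 40 of the 76 Il6 UMIs and 25 of the 45 Hgf UMIs of the ketogenic cells, but only 8 of the 152 Osm UMIs. Osm thus stood at 430 CPM in these 10 cells and at 3142 CPM in the other 27 ketogenic cells, near the 3418 CPM of the normal cells. These 10 cells were picked after their values were seen, so this is a description of the cells.

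Gzmc, the next granzyme on the chromosome, had 80 UMIs in 14 ketogenic cells and 1 UMI in 1 normal cell. Of the 80, 55 were in a single cell, and the ambient level of Gzmc was 8165 CPM in the ketogenic and 4126 CPM in the normal library. A Gzmc UMI was found in 37.8% (22.5 to 55.2%) of ketogenic basophil-like cells and 24.5% of ketogenic neutrophils. At an equal depth of 1000 UMIs the expected share was 27.2% of basophil-like cells and 10.5% of neutrophils in the ketogenic library, and 3.79% and 13.5% in the normal library. The part of ambient RNA in the Gzmc difference was not tested.

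Interleukin 1 beta was found in 10 of 37 ketogenic basophil-like cells, with 32, 13, 11, 10, 5, 4, 2, 1, 1 and 1 UMIs, and in 0 of 16 normal ones, which allows a share of cells with an Il1b UMI of up to 18.8% (a floor of 3 counts). Set against a floor of 3 UMIs over the normal set, Il1b was at least 10.2-fold higher in the ketogenic cells, and the exact interval of the ratio begins at 8.08. The neutrophil list gave 28 UMIs in 8 of these 10 cells, 24 of them from Acod1, with S100a8 at 0. The monocyte list gave 40 UMIs in 9 of these cells, with Lyz2 at 2 UMIs. Per total, the neutrophil list stood at 1523 CPM in these 10 cells and 1736 CPM in the other 27 ketogenic cells, and the monocyte list at 2176 CPM and 1606 CPM. The part of these genes in the Il1b difference was not tested. Gzmb was found in 7 of the 10 cells. The deepest normal barcode is the exception, with 27 Il1b UMIs, and over all 63 cells Il1b stood at 1043 CPM in the ketogenic and 566 CPM in the normal cells. Il1b is abundant in other cells, with UMIs in 98.1% of ketogenic and 97.5% of normal neutrophils and in 9.22% of ketogenic and 13.7% of normal NK cells, whose median depth was 4821 UMIs in the ketogenic and 5622 in the normal library. At an equal depth of 1000 UMIs the expected share was 23.6% of basophil-like and 4.03% of NK cells in the ketogenic library, and 0% and 5.05% in the normal library.

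**Figure D4:**
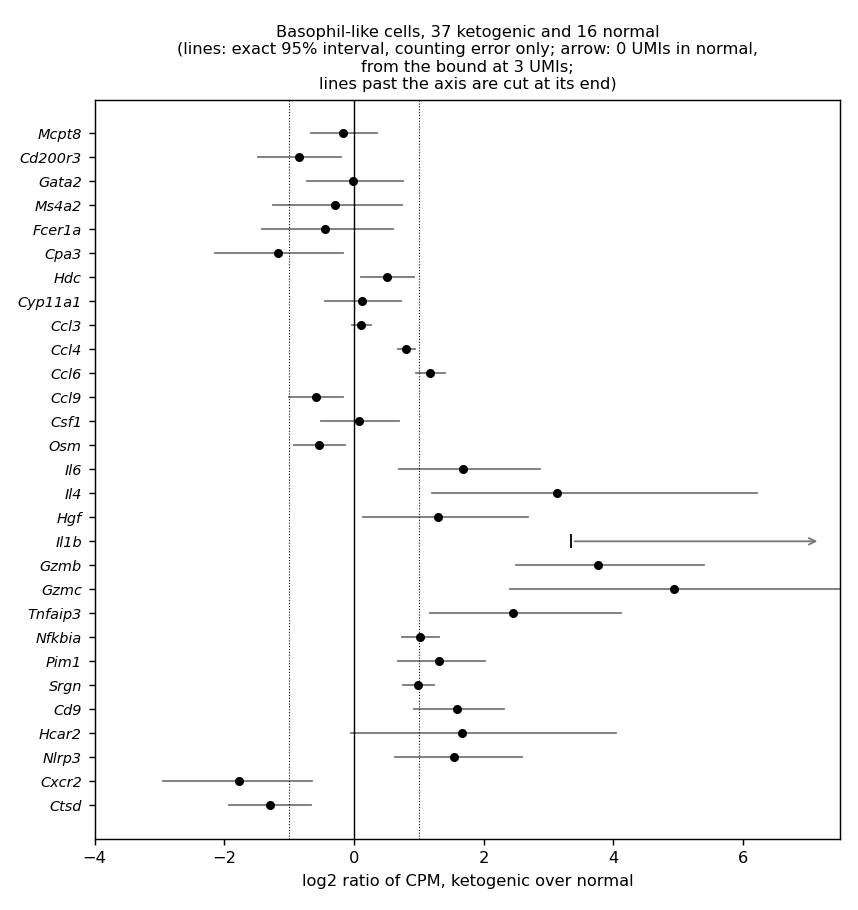
Log2 ratio of CPM, ketogenic over normal, in basophil-like cells (37 ketogenic, 16 normal, without the deepest normal barcode), with exact 95% intervals from counting error and dotted lines at 2-fold. Mcpt8, Gata2, Ccl3 and Csf1 lie near 0, Il4, Il6, Gzmb and Tnfaip3 lie to the right, and the arrow for Il1b marks 0 UMIs in the normal cells.

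Of 19 genes of NF-kB signaling and its feedback, 3 were measured in the basophil-like cells. Of these, 2 (Tnfaip3 and Nfkbia) were at least 1.5-fold higher in the ketogenic cells, where 17.1% of all 572 genes were. With 3 genes measured, this describes single genes and not the list. Tnfaip3, which encodes the NF-kB inhibitor A20, had UMIs in 31 of 37 ketogenic and 4 of 16 normal cells, at 1117 CPM and 203 CPM, a ratio of 5.49 (2.25 to 17.4). Nfkbia, which encodes the inhibitor IkB-alpha, stood at 9837 CPM in the ketogenic and 4843 CPM in the normal cells, a ratio of 2.03 (1.67 to 2.49). Nfkbiz had a ratio of 1.18 (0.854 to 1.66). Tnfaip3 was seen in 25.8% of ketogenic and 23.2% of normal neutrophils. Of 28 transcription factors, 6 were measured, and 4 of these were at least 1.5-fold higher. Summed over all 28 genes, the list stood at 4531 CPM in the ketogenic and 4802 CPM in the normal cells. The measured genes thus do not stand for the list. Cebpb, a factor of granulocyte development, had a ratio of 2.36 (1.20 to 5.17), and Nfil3, Klf2 and Spi1 had intervals that hold 1. Runx1 had a ratio of 1.03. Immediate early genes, which include responses to tissue dissociation, were high in both sets: of 17 measured, 1 was at least 1.5-fold higher and 2 at least 1.5-fold lower, with Fos at 5058 CPM in the ketogenic and 3785 CPM in the normal cells and Jun at 4686 CPM and 7895 CPM.

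Surface and adhesion genes were mixed. Cd9, a tetraspanin, had 0 to 16 UMIs per ketogenic cell, median 3, and 0 to 6 per normal cell, median 1, in 35 of 37 and 11 of 16 cells, a ratio of 3.0 (1.90 to 4.97). Cxcr2, a receptor for neutrophil-attracting chemokines, stood at 202 CPM in the ketogenic and 692 CPM in the normal cells, a ratio of 0.292 (0.130 to 0.637). Il18r1, a receptor chain for interleukin 18, had a ratio of 0.413 (0.174 to 0.990). The receptor chains Csf2rb and Csf2rb2, which interleukin 3 signals through, had ratios of 0.836 (0.539 to 1.32) and 0.839 (0.381 to 1.98). In granules, Srgn, serglycin, the proteoglycan core that holds proteases, had a ratio of 1.99 (1.68 to 2.35), Cd63, a degranulation marker, 1.08 (0.760 to 1.55), and Ctsd, cathepsin D, 0.407 (0.264 to 0.629).

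Genes tied to metabolism were sparse. Hcar2, the receptor for beta-hydroxybutyrate, the main ketone body, had 25 UMIs in 15 of 37 ketogenic cells and 3 UMIs in 3 of 16 normal cells, a ratio of 3.18 whose interval of 0.969 to 16.4 holds 1. Nlrp3, the inflammasome sensor, had UMIs in 28 of 37 ketogenic and 6 of 16 normal cells, at 1303 CPM and 448 CPM, a ratio of 2.91 (1.55 to 6.05). These were the only 2 measured of 22 genes listed for ketone body and fatty acid use. Neither encodes a metabolic enzyme, so no metabolic enzyme of this list was measured. In neutrophils, Hcar2 stood at 481 CPM in the ketogenic and 741 CPM in the normal library, and Nlrp3 at 240 CPM and 280 CPM. Of 8 measured glycolysis and hypoxia genes, 2 were at least 1.5-fold higher and 1 at least 1.5-fold lower, and the median log2 ratio was 0.20; Hilpda, a lipid droplet protein induced by low oxygen, had a ratio of 2.75 (1.07 to 8.96). Of 8 measured mitochondrial genes, none was 1.5-fold higher and 1 was 1.5-fold lower, with a median log2 ratio of -0.27.

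Other genes were named by a rule that asked for a difference past 2-fold, an interval that excludes 1, though not 2, and UMIs in at least 5 cells of the higher library. Higher in the ketogenic basophil-like cells were Slbp (25 UMIs in 12 ketogenic cells and none in normal cells, with an interval that begins at 2.40), which binds histone mRNA, Sqstm1, the autophagy adaptor p62, with a ratio of 8.01 (2.08 to 68.3), and Clec4e, a pattern receptor, with 10.7 (1.76 to 437). Also in this group were Hs3st1, Gm20186, Slpi, Ifrd1, Lmnb1, Sem1 and Hsp90aa1. Hsp90aa1 fell below 2-fold once the ketogenic cell with 23 of its 40 UMIs was left out. Lower were Jak1, a cytokine receptor kinase, with a ratio of 0.280 (0.116 to 0.651), Tent5a, Npc2, Hnrnph1, Gas5, Xist and Mbnl1, all of which kept a 2-fold difference without the richest normal cell. Hist1h1c, Ms4a4b, Egr2, Ccnd2, Rabac1 and Actr3 did not keep a 2-fold difference without it.

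The type I interferon list did not keep its direction between all cells and the basophil-like cells. Over all 63 cells, 14 genes of 38 were measured, 1 was at least 1.5-fold higher and 10 at least 1.5-fold lower, with a median log2 ratio of -1.08, where 16.6% of all 863 genes were at least 1.5-fold higher and 19.4% lower. In the basophil-like cells without the deepest barcode only 4 genes were measured and none passed 1.5-fold on the log2 (CPM + 50) scale, with a median of 0.13. Isg15 there stood at 1908 CPM in the ketogenic and 1262 CPM in the normal cells, a ratio of 1.51 (1.01 to 2.32), and Ifitm3 at 1676 CPM and 1709 CPM. The plot of list medians shows this as the widest gap between the sets.

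**Figure D5:**
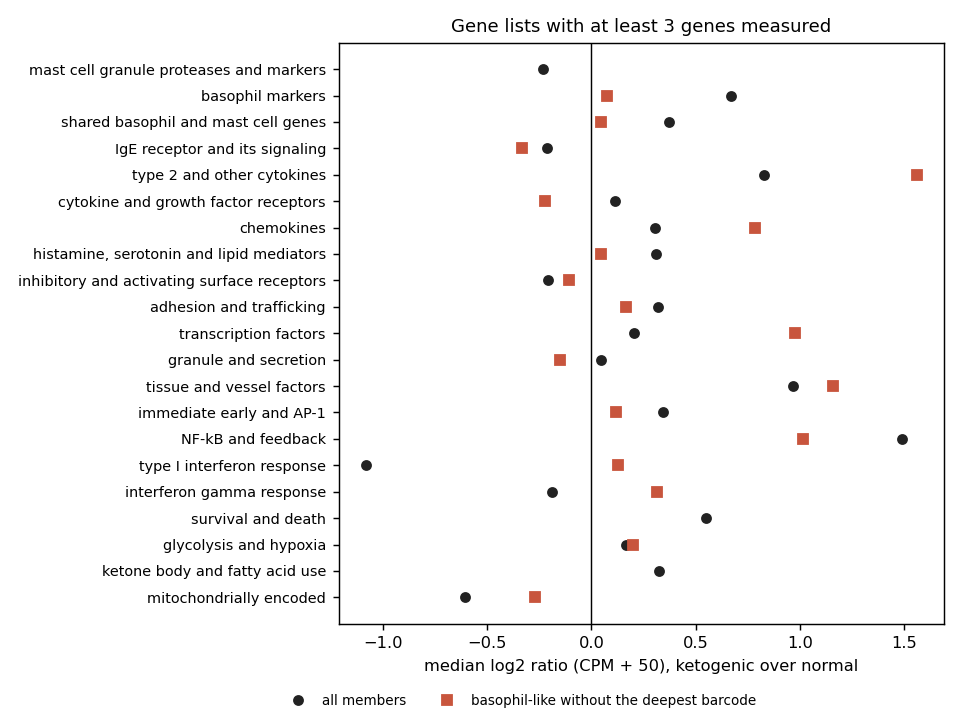
Median log2 ratio of (CPM + 50), ketogenic over normal, for gene lists with at least 3 measured genes, over all 63 cells (circles) and in basophil-like cells without the deepest normal barcode (squares). Type I interferon genes lie at -1.08 over all cells and at 0.13 in basophil-like cells, while cytokines lie at 0.83 and 1.56.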

How the data were processed

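The authors deposited raw UMI counts per gene and barcode for every barcode of both libraries, with 42710007 UMIs in the ketogenic and 37575996 in the normal library. The submitters' processing notes give mm10 (GRCm38) as the genome build, with Seurat 3.2.0 and Cell Ranger 6.0.0 as tools, while the file header names version 4 of Cell Ranger. How the aligner was set is not given in the sources used here. The cells and gene lists were chosen with earlier results of these data known. No doublet caller was run; T cell, NK cell and C1q limits of the rule removed some mixed barcodes.

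UMIs were summed over the cells of a library (pandas 2.3.3, scipy 1.17.1 and numpy 2.4.6 under Python 3.11.15). Genes with at least 20 UMIs over both libraries counted as measured, and differences are log2 (CPM + 50), ketogenic over normal. Shares have Clopper-Pearson intervals and ratios have conditional exact intervals, all at 95%. Depth limits each value: a count of 0 allows 3 counts. Up to 15 genes per direction were named between the diets when past 2-fold, with an interval that excludes 1 and UMIs in at least 5 cells of the higher library, beside up to 6 genes of each list and the leading 25 against other barcodes. A few genes with small or scattered values, such as Areg, Prss34, Il13 and the ambient levels, were added after values were seen, as was the set of basophil-like cells without the deepest barcode. Expected shares at 1000 UMIs leave out shallower cells (35 of 37 ketogenic and 16 of 16 normal basophil-like cells stayed). Calculations were tested on simulated data. Thresholds on markers, depth, mitochondrial share, added CPM and UMIs per gene were varied, and ambient RNA was subtracted. The subtraction was made over all 63 cells and not in the basophil-like set. Its amount was scaled by the cells' C1q UMIs, which the rule caps at 1 per cell, so the rule held it down.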

Additional observations from a re-analysis of the deposited data

How the results depend on the processing

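The log2 ratio of the share of basophils and mast cells was 0.54 to 1.09 over 8 alternatives, with the interval above 0 in 3 of them. The number of genes at least 2-fold higher in the ketogenic cells, 56, was 30 with at least 50 UMIs per gene and 214 with no minimum. The number lower, 71, was 32 with cells carrying genes of a further lineage removed, 41 without the deepest normal barcode, 29 in basophil-like cells without it, 21 with at least 50 UMIs per gene and 540 with no minimum. The median log2 ratio of type I interferon genes, -1.08, was 0.054 with cells of a further lineage removed, 0.13 in basophil-like cells without the deepest barcode and -0.42 without that barcode alone; fewer genes were measured in each of these sets. Of the alternative values of genes named over all cells, 334 kept direction and 2-fold size and 1 (S100a6) did not. Genes too sparse to be measured under an alternative were left out of this count. Of the 30 named genes, 20 were scored without the deepest normal barcode and 18 with cells of a further lineage removed. For genes named in basophil-like cells, 230 alternative values kept direction and 2-fold size and 10 did not. Few cells and shallow profiles (median 1765 UMIs in ketogenic and 1416.5 in normal basophil-like cells) limit all ratios. No paired analysis was possible because each diet has 1 library.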
